A study of Drosophila melanogaster with 24 samples.

Results

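The genes described here encode proteins of the mitochondrial ribosome in Drosophila melanogaster. They were taken from the deposited UMI count table by name alone, as every gene whose symbol begins with mRpL or mRpS followed by a digit. This rule found 72 of the 15610 genes in the table, 46 named for the large ribosomal subunit and 26 named for the small one. The names follow subunit numbering, and in mammals mRpS30 and mRpS18A sit in the large subunit in spite of their names.

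Mitochondria keep a small genome whose protein-coding genes specify core subunits of the respiratory chain and of ATP synthase. Those messages are translated inside the organelle by ribosomes whose RNA comes from the mitochondrial genome and whose proteins are all encoded in the nucleus, made in the cytosol and imported. Many of these proteins have bacterial counterparts, while others occur only in mitochondria, and in neurons the ribosomes supply the respiratory chain on which synaptic activity draws.

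RNA was measured in clock neurons sorted from brains of male flies, in which the CLK856-Gal4 driver expressed Cas9 and eGFP. The mutant flies also carried a construct with guide RNAs against Drp1, Marf or Opa1, and the Cas9 flies carried no guides, so all groups share Cas9, eGFP and the driver. Drp1 carries out mitochondrial fission, Marf, the fly mitofusin, fusion of the outer membrane, and Opa1 fusion of the inner membrane. The groups were old Drp1-mut, old Marf-mut, old Opa1-mut and old Cas9 at about 35 days, and young Drp1-mut, young Marf-mut, young Opa1-mut and young Cas9 at about 15 days, with 3 libraries each and 24 in all. Each library was a pool of about 1000 GFP-positive cells collected at ZT14, and the 3 libraries of a group came from 1 suspension of 80 to 100 brains. The p-values between libraries therefore measure the spread between sorted pools, and suspension and genotype or age cannot be told apart in them. Somatic cutting by Cas9 can differ between cells, so a mutant group may hold edited and unedited neurons, and lower RNA per cell and fewer cells of a type cannot be told apart in such pools.

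Libraries held 684175 to 2889269 UMIs. In CPM, UMI counts scaled to library size by TMM over all 24 libraries, Drp1 averaged 85.9 ± 16.4 in old Drp1-mut against 161 ± 5.49 in old Cas9 and 98.7 ± 23.0 in young Drp1-mut against 143 ± 15.0 in young Cas9 (SD, n = 3 each). Opa1 averaged 93.8 ± 3.52 CPM in old Opa1-mut against 151 ± 3.34 in old Cas9 and 103 ± 21.8 in young Opa1-mut against 143 ± 13.5 in young Cas9. Marf averaged 116 ± 8.59 CPM in old Marf-mut against 139 ± 3.18 in old Cas9, and 118.2 ± 22.05 in young Marf-mut against 142 ± 14.9 in young Cas9, where the libraries overlapped. Over the 24 libraries 5 clock neuron markers summed to 6879 to 21499 CPM, 6 glial markers to 197 to 475 and 4 photoreceptor markers to 3.66 to 46.7. Fat body and hemocyte markers summed to 1.62 to 119 CPM and 3 general neuron markers to 1287 to 1843.

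Some marker sums were separate between compared groups. Clock neuron markers summed to 14994 to 19528 CPM in old Marf-mut against 12185 to 14438 in old Cas9, and general neuron markers to 1287 to 1318 in old Opa1-mut against 1482 to 1701 in old Cas9. Glial markers summed to 197 to 206 CPM in young Opa1-mut against 246 to 306 in young Cas9, and photoreceptor markers to 12.2 to 14.6 in young Opa1-mut and 10.4 to 16.1 in young Marf-mut against 3.66 to 9.75 in young Cas9. General neuron markers summed to 1499 to 1579 CPM in young Marf-mut and 1482 to 1701 in old Cas9, both against 1289 to 1477 in young Cas9. With age within a mutant, glial markers summed to 286 to 456 CPM in old Drp1-mut against 243 to 274 in young Drp1-mut. In Marf-mut they summed to 343 to 475 CPM in old and 229 to 288 in young neurons. In Opa1-mut it was 255 to 351 CPM in old and 197 to 206 in young neurons, while in Cas9 the ages overlapped. Clock neuron markers summed to 6879 to 9689 CPM in young Marf-mut, below all old Marf-mut libraries. General neuron markers summed to 1562 to 1843 CPM in old Drp1-mut against 1385 to 1510 in young Drp1-mut. Those old Drp1-mut sums also lay above old Marf-mut (1485 to 1546) and old Opa1-mut. In young Opa1-mut general neuron markers summed to 1422 to 1561 CPM, above old Opa1-mut. The part of these markers in the results below was not tested.

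Replicate 3 of young Drp1-mut and replicate 3 of young Marf-mut, with 2889269 and 2104854 UMIs the deepest libraries of their groups, stood apart from the other libraries of those groups in the short members described below. In library comparisons that include them, medians over the members are given with and without them, as are counts of called members that changed. Counts summed per suspension include them too, and there only whole suspensions were left out.

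All 72 members passed the filter on low counts in every comparison, and the lowest UMI count of any member in any library was 20. Mean levels over the 24 libraries ran between 47.0 and 416 CPM, with a median of 88.3. The highest was mRpS5, a small subunit protein with a bacterial counterpart, at 416 CPM. It was followed by mRpL27, which lies near the peptidyl transferase centre, at 184, and by mRpS25 at 177, mRpS18A at 155 and mRpL24, a protein near the exit tunnel, at 152 CPM. The lowest were mRpS18B at 47.0 CPM, mRpL37 at 50.5, mRpS30 at 51.7, mRpS29, the GTP-binding protein known as DAP3 in mammals, at 54.1 and mRpL44, which carries an RNase III-like fold, at 56.2.

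Set against the longest annotated transcript of each gene, the order changed. In CPM per kb mRpL33, a small large-subunit protein with a bacterial counterpart, stood first at 344, ahead of mRpS5 at 293, mRpS25 at 276, mRpS18A at 267, mRpL55 at 240 and mRpL42 at 219. The lowest in CPM per kb were mRpS30 at 24.9, mRpL37 at 37.3 and mRpS29 at 37.6. The libraries of mRpS5 spanned 355.0 to 480.1 CPM over all groups, and it was the highest member in CPM in each group.

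The members lie on all large chromosome arms (dm6), with 12 on 2L, 11 on 2R, 17 on 3L, 21 on 3R and 11 on X. A head-to-head coding neighbour on the other strand, with starts at most 500 bp apart, was found for 51 of 72 members (70.8%), against 2525 of 6770 coding genes tested (37.3%). Exons of 42 members overlap exons of another gene, in 41 of them on the opposite strand, and 30 members have no such overlap. Whether the authors' counting used strand is not given in the sources used here, so reads of an overlapping pair may be shared, and results are also given for the 30 members without overlap. The longest transcripts of the members are 327 to 2078 nt, with a median of 778.5 nt against 2211.5 nt for the genes tested. Of the members, 12 (16.7%) have only transcripts under 600 nt, against 3.29% of the genes tested: mRpL34, mRpL33, mRpL55, mRpS21, mRpS33, mRpL36, mRpS18C, mRpS16, mRpL52, mRpS18A, mRpL42 and mRpL41.

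Summed over all 72 members, the level was 6186, 6579 and 6402 CPM in old Drp1-mut, 6824, 6912 and 6500 in old Marf-mut, 6435, 6356 and 6035 in old Opa1-mut and 7076, 6953 and 6564 in old Cas9. All old Drp1-mut and old Opa1-mut libraries except replicate 2 of old Drp1-mut lay below every old Cas9 library. In the young groups the sum was 8108, 7571 and 6214 CPM in young Drp1-mut, 8010, 8679 and 6423 in young Marf-mut, 7607, 6727 and 7269 in young Opa1-mut and 7414, 7424 and 6731 in young Cas9. Each young mutant group overlapped young Cas9, and the lowest library of young Drp1-mut and of young Marf-mut was the deepest one.

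**Figure D1:**
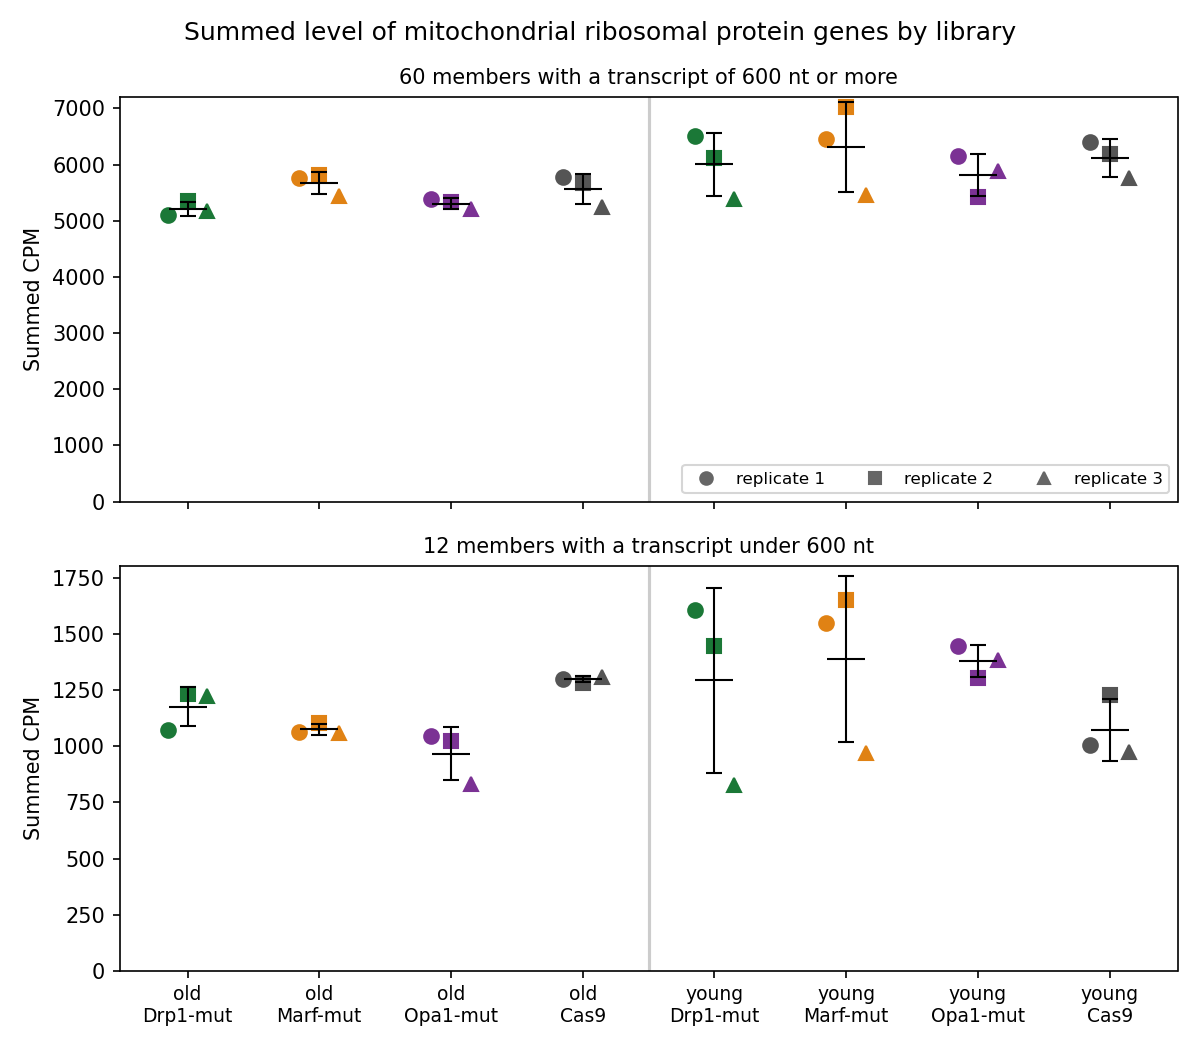
Summed CPM of the 60 members with a longest transcript of at least 600 nt (first panel) and of the 12 members under 600 nt (second panel) in each library, with groups on the horizontal axis and markers for replicates 1 to 3; the bar is the mean ± SD (n = 3). The short members sum to 832 to 1044 CPM in old Opa1-mut against 1284 to 1310 in old Cas9, and to 1305 to 1447 in young Opa1-mut against 976 to 1230 in young Cas9.

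Single members moved little. The ratio of the highest to the lowest group mean had a median of 1.38 over the members and was under 1.5 for 58 of 72. It was over 2 only for mRpL33, at 2.03, followed by mRpS33 at 1.91, mRpL34 at 1.89 and mRpS21 at 1.87. The highest group mean belonged to a young group in 67 members (young Marf-mut in 33) and the lowest to an old group in 67 (old Drp1-mut in 31 and old Opa1-mut in 25). The same counts were not made over all genes, so nothing particular to the members is read from them.

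In old Opa1-mut neurons, 4 members fell relative to old Cas9 and none rose at an adjusted p under 0.05 (quasi-likelihood F test of edgeR, Benjamini-Hochberg adjustment over all genes tested), against 13.2% of all genes called, 5.65% of all genes as lower. The 4 members are 5.56% of 72, close to that share. The median log2 fold change was -0.10, with 52 of 72 negative. The CPM libraries of 17 members lay wholly below old Cas9, against 14.1% of all genes, and those of 6 wholly above, against 16.3% of all genes.

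mRpS21, a small subunit protein with a bacterial counterpart, lies at 3R:13381276-13381809 on the minus strand and overlaps CG8870. It stood at 59.7, 55.7 and 46.2 CPM in old Opa1-mut and at 110.0, 90.1 and 96.6 CPM in old Cas9. All 3 mutant libraries lay below all 3 control libraries, and it fell by 0.89 ± 0.15 (log2 ± SE, adjusted p = 0.000273). mRpS33, found only in mitochondrial ribosomes, lies at 3R:16436045-16436597 on the minus strand and overlaps CG14881. It stood at 38.4, 40.0 and 32.7 CPM in old Opa1-mut and at 77.8, 63.3 and 67.5 CPM in old Cas9. Here too the groups did not overlap, and it fell by 0.92 ± 0.17 (adjusted p = 0.000562). Both calls held when any single library was left out, and over all alternatives the adjusted p ran between 1.18e-06 and 0.222 for mRpS21 and between 1.46e-05 and 0.224 for mRpS33.

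mRpL36, a large subunit protein with a bacterial counterpart, lies at 3L:8124584-8125132 without an overlapping gene. It stood at 73.4, 66.5 and 66.4 CPM in old Opa1-mut and at 98.2, 90.1 and 101.2 CPM in old Cas9, and fell by 0.49 ± 0.14 (adjusted p = 0.0199). mRpS18C, a small subunit protein with a bacterial counterpart, at 3R:30423974-30424556 and overlapping CG15536, stood at 83.7, 80.8 and 88.2 CPM in old Opa1-mut and at 115.5, 116.1 and 108.7 CPM in old Cas9, and fell by 0.43 ± 0.13 (adjusted p = 0.0312). Neither gene's groups overlapped, and both adjusted p-values are near the threshold, with ranges of 0.0172 to 0.615 for mRpL36 and 0.0262 to 0.304 for mRpS18C over all alternatives tried. Without replicate 2 of old Opa1-mut only mRpS21 and mRpS33 were called (2 members), and without replicate 3 of old Cas9 there were 7.

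The largest log2 differences in old Opa1-mut did not pass. mRpL33 (X:4321764-4322231, minus strand, without an overlapping gene) stood at 97.4, 90.9 and 42.6 CPM in old Opa1-mut and at 147.7, 138.9 and 162.2 CPM in old Cas9, a difference of -0.98 ± 0.29 (adjusted p = 0.0874). mRpL34 (2R:16098948-16099337, overlapping CG8414), another small large-subunit protein with a bacterial counterpart, stood at 56.3, 48.9 and 24.4 CPM in old Opa1-mut and at 77.8, 67.4 and 97.5 CPM in old Cas9, a difference of -0.93 ± 0.27 (adjusted p = 0.0547). In both genes replicate 3 of old Opa1-mut was far below the other libraries of its group. Without it 5 members were called, mRpL33 at -0.67 with an adjusted p of 0.0032 and mRpL34 at -0.62 with an adjusted p of 0.0417 among them, while mRpL36 missed the threshold at 0.0718. Over all alternatives the adjusted p ran between 3.60e-08 and 0.904 for mRpL33 and between 2.85e-06 and 0.970 for mRpL34. The largest positive differences among members whose libraries did not overlap were those of mRpL38 of the central protuberance at 0.35 ± 0.15 (adjusted p = 0.151), mRpS29 at 0.34 ± 0.17 (adjusted p = 0.227) and mRpL30 at 0.33 ± 0.13 (adjusted p = 0.0997).

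In old Marf-mut neurons, 3 members fell and none rose, against 4.58% of all genes called and 2.91% as lower. The median log2 fold change was -0.03, with 39 of 72 negative, and under scaling by total counts it was 0.06. Libraries of 9 members lay wholly above old Cas9, against 11.1% of all genes, and those of 7 wholly below, against 10.8%. mRpL33 stood at 73.6, 86.0 and 116.2 CPM in old Marf-mut, against the old Cas9 values above, and fell by 0.69 ± 0.15 (adjusted p = 0.00519). mRpS21 stood at 52.2, 64.1 and 67.6 CPM in old Marf-mut and fell by 0.69 ± 0.15 (adjusted p = 0.00569). mRpL34 stood at 45.7, 47.5 and 56.4 CPM in old Marf-mut and fell by 0.69 ± 0.17 (adjusted p = 0.0153). In all 3 genes the mutant libraries lay below every old Cas9 library. Without replicate 1 of old Marf-mut no member was called, with mRpL33 at -0.56 (adjusted p = 0.057), mRpS21 at -0.59 (adjusted p = 0.0537) and mRpL34 at -0.63 (adjusted p = 0.0899). Over all alternatives the adjusted p ran between 8.43e-06 and 0.428 for mRpL33, 0.000478 and 0.423 for mRpS21 and 0.00205 and 0.518 for mRpL34. The mRpL34 call also ended without replicate 2 of old Marf-mut (adjusted p = 0.0637) or replicate 3 of old Cas9 (adjusted p = 0.0631). The largest positive differences without overlap were those of mRpS29 at 0.38 ± 0.18 (adjusted p = 0.275), mRpL46 at 0.35 ± 0.15 (adjusted p = 0.235) and mRpL38 at 0.27 ± 0.16 (adjusted p = 0.424), none of which passed.

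In old Drp1-mut neurons 0 members passed edgeR's test, against 0.394% of all genes, with 3 members at an unadjusted p under 0.05 and 0 called by DESeq2. Of the log2 fold changes 54 of 72 were negative, with a median of -0.11. Libraries of 9 members lay wholly below old Cas9, against 6.75% of all genes, and those of 1 wholly above, against 5.91%. mRpS33 stood at 37.5, 49.0 and 58.0 CPM in old Drp1-mut, each below the lowest old Cas9 library, a difference of -0.56 ± 0.21 (adjusted p = 0.471). mRpL44 stood at 39.4, 46.1 and 38.7 CPM in old Drp1-mut and at 46.3, 69.0 and 49.7 in old Cas9 (-0.41 ± 0.23, adjusted p = 0.734), and mRpS18C differed by -0.40 ± 0.16 (adjusted p = 0.511). The member wholly above was mRpL30, a large subunit protein with a bacterial counterpart, at 0.28 ± 0.16 (adjusted p = 0.721). The 3 old mutant groups were set against the same old Cas9 libraries, so their values are not independent of each other.

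In young Opa1-mut neurons 2 members rose and 1 fell relative to young Cas9, against 2.94% of all genes called, 2.27% as higher and 0.67% as lower. The median log2 fold change over the 72 was -0.04, with 41 negative. Libraries of 9 members lay wholly above young Cas9, against 11.3% of all genes, and those of 12 wholly below, against 12.4%. mRpL33 stood at 151.3, 161.8 and 156.4 CPM in young Opa1-mut and at 64.3, 104.7 and 79.6 CPM in young Cas9. The groups were far apart, and it rose by 0.94 ± 0.16 (adjusted p = 0.0061), a call that held without any single library. It was lost with the length trend taken out (0.46), with log2 depth as a covariate (0.75) and when the 24 libraries were fitted together (0.94), and the adjusted p ran between 6.74e-08 and 0.546 over all alternatives.

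mRpL42, a protein of mitochondrial ribosomes without a bacterial counterpart (2R:10066650-10067242, overlapping Cdc2rk), stood at 154.3, 163.8 and 145.0 CPM in young Opa1-mut and at 88.8, 107.9 and 92.9 CPM in young Cas9. It rose by 0.69 ± 0.13 (adjusted p = 0.0106), with no overlap, and missed the threshold only without replicate 3 of young Cas9 among the libraries left out (0.67, adjusted p = 0.0577, with a range of 0.000219 to 0.614 over all alternatives). mRpL15, a large subunit protein with a bacterial counterpart (3L:20435110-20436209, overlapping Psn), stood at 59.6, 55.9 and 49.4 CPM in young Opa1-mut and at 87.8, 73.5 and 82.7 CPM in young Cas9. It fell by 0.56 ± 0.14 (adjusted p = 0.0426), again with no overlap, but among the libraries left out the call held only without replicate 2 of young Cas9, and over all alternatives the adjusted p ran between 0.00920 and 0.685. Without that library 7 members were called, and without replicate 3 of young Cas9 only mRpL33 was (1 member).

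Other members of young Opa1-mut stood near the threshold. mRpL34 stood at 86.3, 77.2 and 72.2 CPM in young Opa1-mut and at 29.3, 62.4 and 45.1 CPM in young Cas9, a difference of 0.81 ± 0.22 (adjusted p = 0.0842). mRpL37, found only in mitochondrial ribosomes, stood at 45.1, 45.9 and 38.6 CPM in young Opa1-mut and at 72.6, 72.8 and 55.7 CPM in young Cas9, a difference of -0.61 ± 0.16 (adjusted p = 0.0561). mRpS24 differed by -0.50 ± 0.14 (adjusted p = 0.0672). The libraries of all 3 genes were separate between the groups.

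In young Marf-mut neurons 0 members passed edgeR's test, against 0.346% of all genes, with 5 at an unadjusted p under 0.05 and 0 called by DESeq2. Over the 72 the median was 0.06 on the log2 scale, with 48 positive, and without replicate 3 of young Marf-mut it was 0.14, with 59 positive. Libraries of 3 members lay wholly above young Cas9, against 6.79% of all genes, and those of 2 wholly below, against 8.34%. The largest differences without overlap were those of mRpS33 at 0.46 ± 0.17 (adjusted p = 0.361), of mRpL10, the stalk protein that anchors mRpL12, at 0.35 ± 0.15 (adjusted p = 0.459) and of mRpL3 at 0.17 ± 0.14, with mRpS22 and mRpL24 at -0.13 ± 0.14 and -0.13 ± 0.12. Without the deep replicate 3 of young Marf-mut, 4 members were called, mRpL23, mRpL33, mRpL42 and mRpS21. For mRpS21 the young Marf-mut libraries held 125.0, 121.4 and 56.0 CPM, so replicates 1 and 2 stood far above and replicate 3 within the young Cas9 values of 48.6, 81.3 and 58.4.

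In young Drp1-mut neurons 0 members passed edgeR's test, against 0.0831% of all genes, with 1 at an unadjusted p under 0.05 and 0 called by DESeq2. Here 42 of 72 log2 fold changes were positive, with a median of 0.01, and under scaling by total counts it was -0.03. Without replicate 3 of young Drp1-mut the median was 0.09, with 51 positive. Libraries of 4 members lay wholly below young Cas9, against 5.72% of all genes, and the largest differences among them were those of mRpL37 at -0.48 ± 0.18 (adjusted p = 0.827), mRpS9 at -0.27 ± 0.14 and mRpS5 at -0.18 ± 0.11 (adjusted p = 0.997 for both). For mRpL33 the young Drp1-mut libraries held 175.8, 156.8 and 71.5 CPM, replicates 1 and 2 above and replicate 3 within the young Cas9 range. Without that deep replicate 3, mRpL33 was called (1 member).

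**Figure D2:**
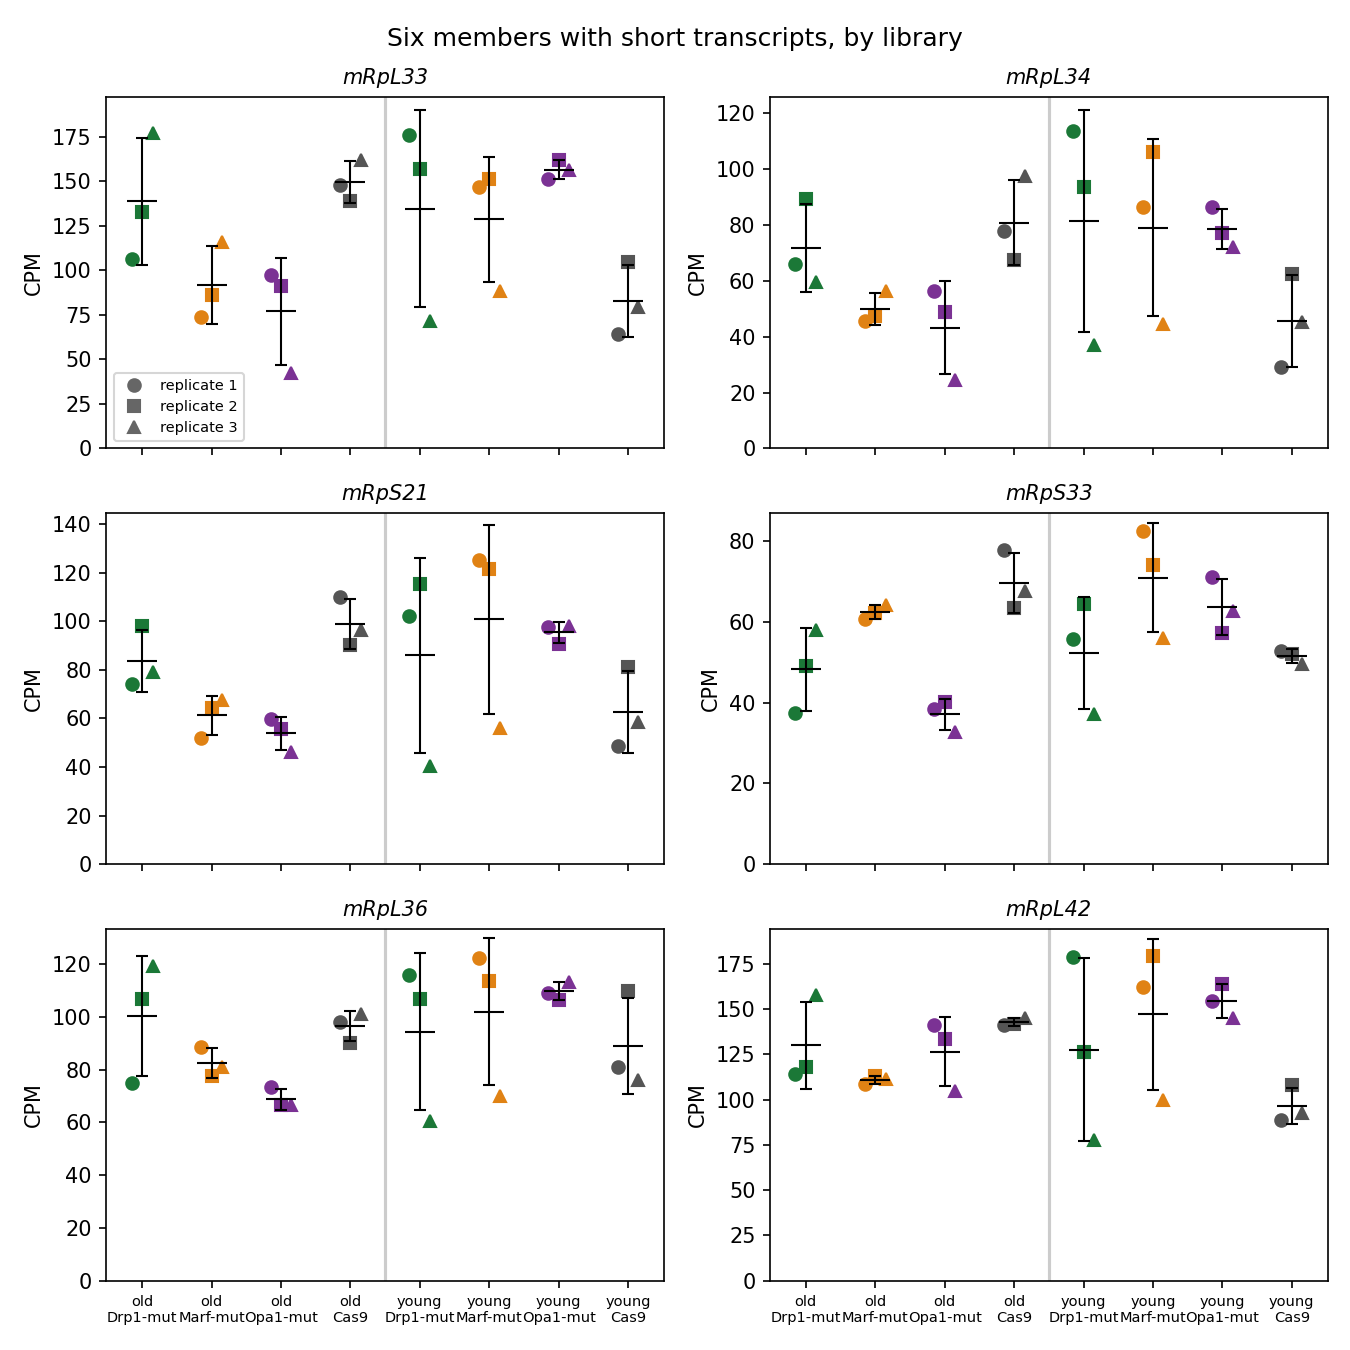
CPM of mRpL33, mRpL34, mRpS21, mRpS33, mRpL36 and mRpL42 in each library, with groups on the horizontal axis and markers for replicates 1 to 3. For mRpL33 the old Opa1-mut libraries (42.6 to 97.4) lie below old Cas9 (138.9 to 162.2) and the young Opa1-mut libraries (151.3 to 161.8) above young Cas9 (64.3 to 104.7).

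**Figure D3:**
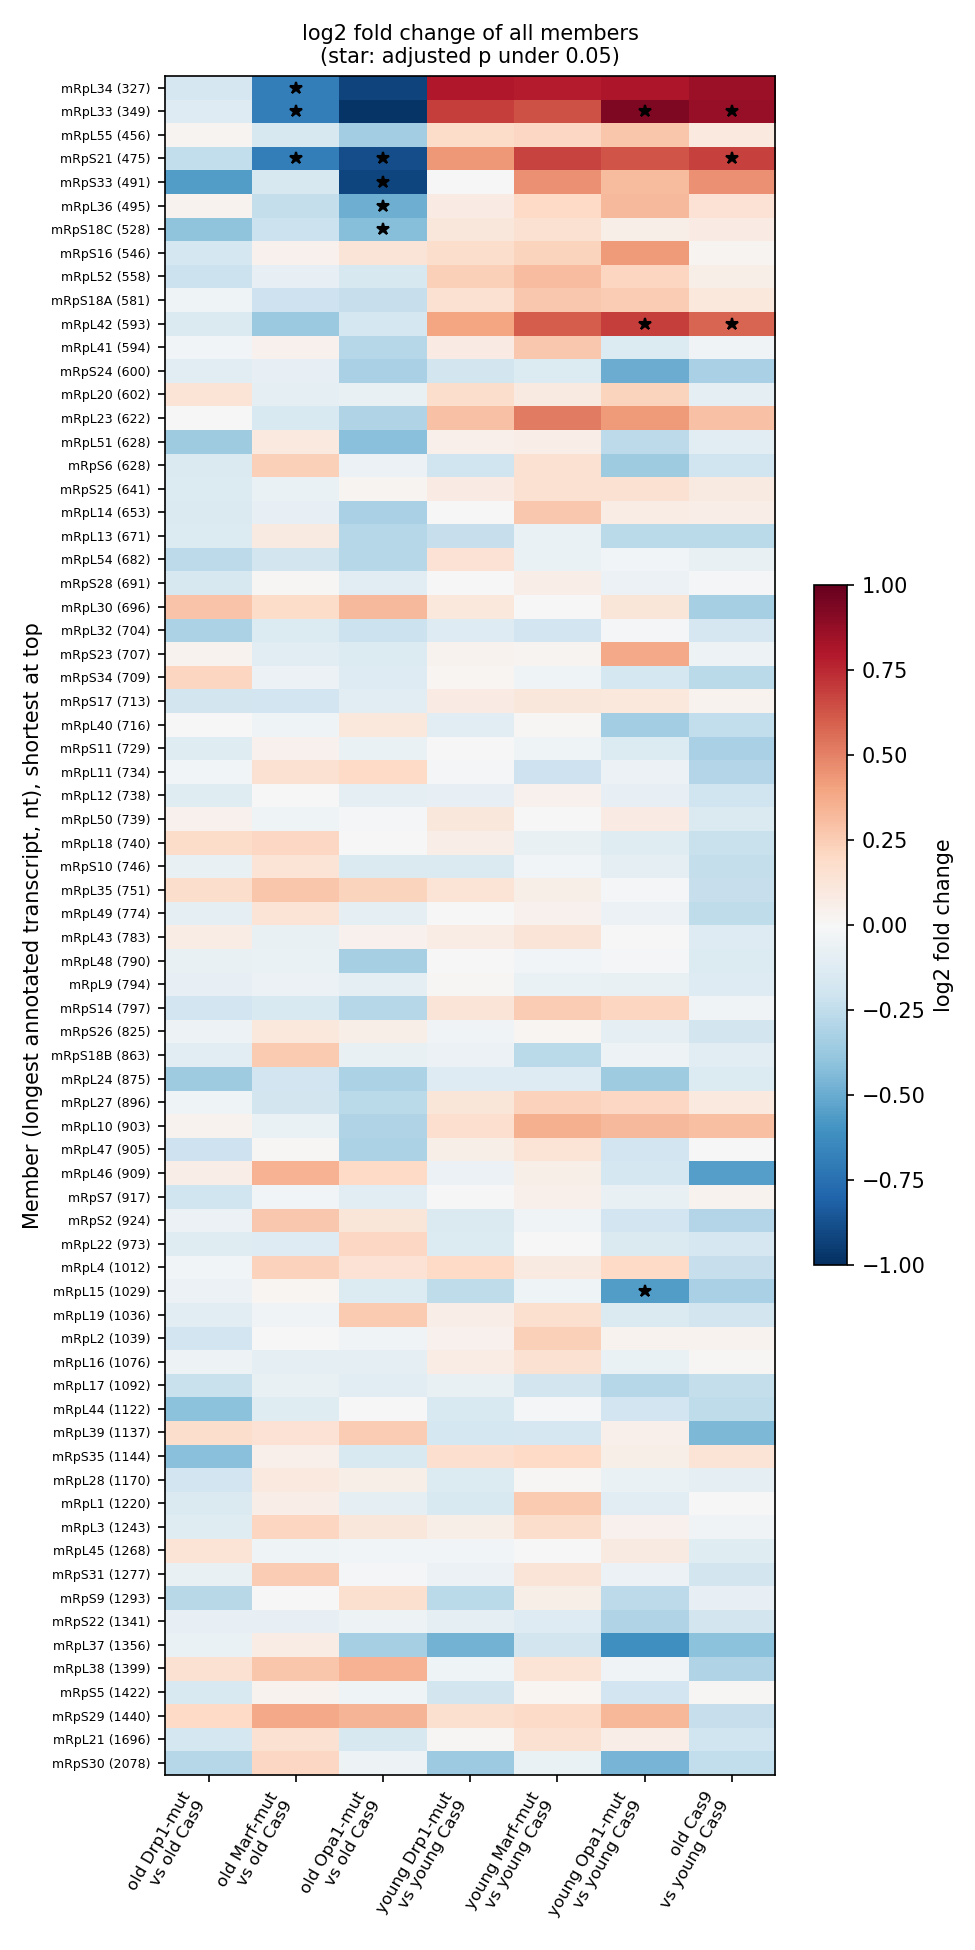
Log2 fold change of all 72 members, ordered by longest transcript with the shortest at the top, in 6 mutant comparisons and in old against young Cas9; a star marks an adjusted p under 0.05. The starred members lie mostly at the top. Of the 10 members called in any comparison 7 have only transcripts under 600 nt. mRpL10 and mRpL23 were called only in the Opa1-mut difference between ages, which is not drawn here.

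Most of the members that were called have short transcripts, and the longer ones are mRpL23 (622 nt), mRpL10 (903 nt) and mRpL15 (1029 nt). Of the 10 members called in at least 1 comparison, 7 have only transcripts under 600 nt, and their median is 511.5 nt against 795.5 nt for the 62 members never called. Short genes as a whole, with the 12 short members among them, moved the same way in the comparisons that follow. In old Opa1-mut the median log2 fold change was -0.39 over the 12 short members and -0.21 over all short genes tested, of which 64 of 234 were called. In young Opa1-mut both medians were 0.32, and 36 of 224 short genes were called. In old Marf-mut the medians were -0.21 over the short members and -0.29 over all short genes, 49 of 225 of them called. In old against young Cas9 they were 0.12 over the short members and 0.33 over all short genes, with 25 of 220 called.

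Library depth differed between the same groups, with 1468850 to 1843669 UMIs in old Opa1-mut against 1109778 to 1313809 in old Cas9, and 1315343 to 1525456 in young Opa1-mut against 1583625 to 2141193 in young Cas9. Old Marf-mut held 1394517 to 1735212 UMIs against the same old Cas9 libraries. In each of these pairs, and between old and young Cas9, the short members summed lower in the deeper group. The group means of Drp1-mut did not follow this order. Old Drp1-mut held 684175 to 1148217 UMIs, and its short members averaged 1177 CPM in sum against 1298 in the mostly deeper old Cas9. Young Drp1-mut held 1318960 to 2889269 UMIs, and its short members averaged 1293 CPM in sum against 1071 in young Cas9. By library, however, the young Drp1-mut sums were 1606, 1446 and 826 CPM at 1318960, 1680324 and 2889269 UMIs, against 976 to 1230 in young Cas9. In young Marf-mut the short members summed to 1549, 1650 and 968 CPM at 1406296, 1328007 and 2104854 UMIs, with a mean of 1389. With a trend on transcript length taken out of each library, old Marf-mut held 0 called members and the old against young Cas9 comparison 0, while 5 were called in old Opa1-mut and 4 in young Opa1-mut. In old Opa1-mut these were mRpS21 and mRpS33 as before, mRpL33 (-0.63, adjusted p = 0.0158) and mRpL24 as lower and mRpL30 as higher (0.39, adjusted p = 0.0288), so that the split turned from 0 higher and 4 lower to 1 higher and 4 lower. In young Opa1-mut mRpL42 and mRpL15 were called as before, mRpS24 (-0.69, adjusted p = 0.00545) and mRpS6 were called as lower, and mRpL33 at 0.46 was not (adjusted p = 0.0515), so that the split turned from 2 higher and 1 lower to 1 higher and 3 lower. With log2 depth as a covariate, no member was called in old Opa1-mut, in young Opa1-mut or in old against young Cas9, and mRpL33 and mRpS21 were still called in old Marf-mut. In each of these comparisons depth did not overlap between the groups. Depth and group can therefore hardly be told apart in this fit, and no conclusion is drawn from the lost calls. The part of depth, cDNA size and RNA quality in these results was not tested.

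**Figure D4:**
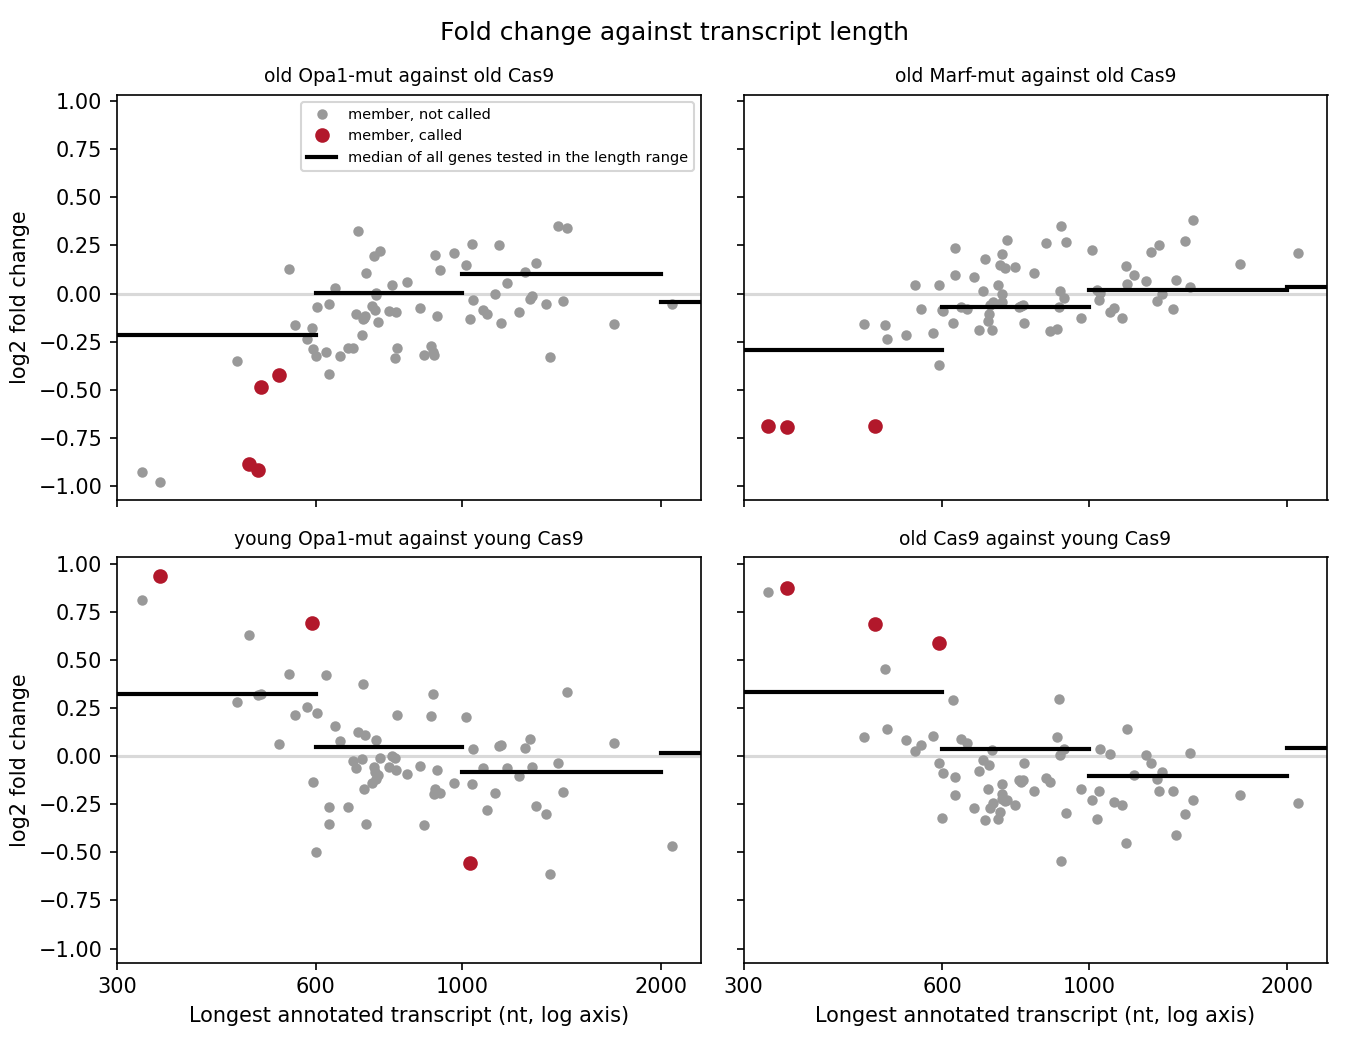
Log2 fold change of each member against the length of its longest transcript in nt (log axis) in 4 comparisons, with black lines for the median of all genes tested in each length range. Short members and short genes in general lie below 0 in old Opa1-mut and old Marf-mut and above 0 in young Opa1-mut and in old against young Cas9.

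The Opa1-mut effect differed between the ages for 8 members, all with a more negative effect in old neurons, against 5.63% of all genes called in this interaction test of edgeR and 3.27% as lower. The median difference over the 72 was -0.03, and 0.06 under scaling by total counts. Of the 12 short members 6 were called, against 50 of 256 short genes tested. The median difference was -0.72 over the 12 and -0.51 over all short genes. mRpS21 had the smallest p, with a difference of effects of -1.51 ± 0.23 (adjusted p = 0.00108). For mRpL33 the difference was -1.91 ± 0.37 (adjusted p = 0.0143), for mRpL34 -1.73 ± 0.42 (adjusted p = 0.0355) and for mRpS33 -1.23 ± 0.22 (adjusted p = 0.00241). mRpL42, at 141.3, 133.7 and 104.8 CPM in old Opa1-mut and 141.4, 142.1 and 145.3 in old Cas9, had a difference of -0.87 ± 0.18 (adjusted p = 0.00607), and mRpL36 one of -0.81 ± 0.20 (adjusted p = 0.018). The calls of mRpL33, mRpL42, mRpS21 and mRpS33 held without any single library, and each was lost under 2 of the 9 other alternatives. No member was called with log2 depth as a covariate, but at each age depth did not overlap between Opa1-mut and Cas9.

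The other 2 members are somewhat longer. mRpL23, which sits at the exit tunnel (3L:2372844-2373704, overlapping CG8993), stood at 99.5, 97.1 and 83.5 CPM in old Opa1-mut and 117.8, 129.1 and 97.5 in old Cas9, and at 129.1, 125.9 and 124.1 CPM in young Opa1-mut and 87.8, 102.1 and 95.5 in young Cas9. The difference of its effects was -0.73 ± 0.18 (adjusted p = 0.0191). mRpL10 (2L:203779-204782, overlapping CG11617) stood at 76.2, 82.1 and 75.2 CPM in old Opa1-mut and 93.5, 103.9 and 90.9 in old Cas9, and at 100.1, 91.2 and 103.2 CPM in young Opa1-mut and 72.6, 80.6 and 84.0 in young Cas9. Its difference was -0.63 ± 0.18 (adjusted p = 0.0385). For mRpL10 the groups did not overlap at either age, with Opa1-mut lower in old and higher in young neurons, and the call was lost in 9 of 12 fits that left out 1 library. Without replicate 2 of young Cas9, 11 members were called, and without replicate 3 of young Cas9 or replicate 3 of old Opa1-mut 5 were.

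For Marf-mut 0 members passed edgeR's test of the difference between ages, against 0.284% of all genes, with 7 at an unadjusted p under 0.05 and 4 called by DESeq2. The median difference was -0.04, and 0.03 under scaling by total counts. Without replicate 3 of young Marf-mut 6 members were called and the median was -0.13. Without replicate 2 of young Cas9, 2 were. For Drp1-mut 0 members passed, against 0% of all genes, with 1 at an unadjusted p under 0.05 and 0 called by DESeq2, at a median of -0.10 with 51 of 72 negative, and at -0.20 with 57 negative without replicate 3 of young Drp1-mut.

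Old Drp1-mut was also set against the mean of the 2 old fusion mutants, old Marf-mut and old Opa1-mut. Here mRpS21 rose and no member fell, against 8.81% of all genes called and 4.83% as higher, at a median of -0.07 with 45 of 72 negative. mRpS21 stood at 74.1, 98.1 and 78.9 CPM in old Drp1-mut, above every library of both fusion mutants, and was higher by 0.54 ± 0.15 (adjusted p = 0.0249). The call ended without replicate 2 of old Drp1-mut (0.41, adjusted p = 0.184), replicate 1 of old Marf-mut (0.49, adjusted p = 0.0576) or replicate 3 of old Opa1-mut (0.49, adjusted p = 0.0582), against a range of 0.0193 to 0.877 over all alternatives, and 3 members were called without replicate 1 of old Drp1-mut and 2 without replicate 1 of old Opa1-mut. Under scaling by total counts, which moved the median of all genes by -0.15, it ended too, and mRpL28, mRpS35, mRpS5 and mRpS9 were lower instead, so the split turned from 1 higher and 0 lower to 0 higher and 4 lower. In young neurons 0 members passed edgeR's test, against 0.0137% of all genes, with 0 at an unadjusted p under 0.05 and 0 called by DESeq2. The median there was -0.03, and 0.09 without replicate 3 of young Drp1-mut and -0.08 without replicate 3 of young Marf-mut.

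Old Cas9 neurons were compared with young ones to follow age without a mutation. Of the members 3 rose and none fell, against 2.45% of all genes called and 2.13% as higher. The family as a whole leaned the other way, with 48 of 72 log2 fold changes negative and a median of -0.12. Libraries of 12 members lay wholly below young Cas9, against 10.9% of all genes, and those of 6 wholly above, against 10.6%. mRpL33 rose by 0.87 ± 0.17 (adjusted p = 0.00812), mRpL42 by 0.59 ± 0.14 (adjusted p = 0.0298) and mRpS21 by 0.69 ± 0.18 (adjusted p = 0.0478), each from the library values given above and with no overlap. Without replicate 3 of young Cas9 or replicate 3 of old Cas9 0 members were called, without replicate 1 of young Cas9 or replicate 1 or 2 of old Cas9 only mRpL33 was (1 member), and without replicate 2 of young Cas9 5 were. In a single fit of all 24 libraries none of the 3 was called and 1 member, mRpL46, was lower, and under total count scaling 2 members were higher and 1 lower. These Cas9 libraries are also the controls of the mutant comparisons.

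The largest negative difference was that of mRpL46, found in the central protuberance of mitochondrial ribosomes (3L:1777439-1778347, with CG2021 starting 28 bp away in the other direction). It stood at 64.4, 52.8 and 66.6 CPM in old Cas9 and at 100.8, 80.6 and 89.4 CPM in young Cas9, a difference of -0.55 ± 0.15 (adjusted p = 0.0744). It was called as lower under total count scaling (-0.67, adjusted p = 0.0222), without the filter (adjusted p = 0.0227), in a single fit of all 24 libraries (-0.56, adjusted p = 0.0377), with the replicate block (adjusted p = 0.0362) and without replicate 2 of young Cas9, and its adjusted p ran up to 0.998 over all alternatives. mRpL39 at -0.45 ± 0.16 (adjusted p = 0.146) and mRpL37 at -0.41 ± 0.17 (adjusted p = 0.234) followed, all without overlap.

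The old mean was below the young mean for 65 of 72 members in Drp1-mut, 65 in Marf-mut, 58 in Opa1-mut and 53 in Cas9, and for 34 in all 4 genotypes. By genotype that is 90.3%, 90.3%, 80.6% and 73.6% of the members, against 51.4%, 49.8%, 50.5% and 50.8% of 8707 genes. For the 34 members lower in all 4 genotypes no share over all genes was counted, so nothing is concluded from that number. Without replicate 3 of the young group the count was 68 in Drp1-mut, 68 in Marf-mut, 53 in Opa1-mut and 56 in Cas9. The summed level of the members overlapped between old and young libraries in Drp1-mut, Marf-mut and Cas9, since replicate 3 of young Drp1-mut lay within the old Drp1-mut libraries and replicate 3 of young Marf-mut below all old Marf-mut ones. To take the suspension as the replicate, counts were summed per suspension and old was compared with young across the 4 genotypes. Then 67 of 72 log2 fold changes were negative, against 4474 of 8707 genes tested, with a median of -0.14 and a range of -0.35 to 0.07. Still 0 members passed edgeR's test, against 3.72% of all genes, with 20 at an unadjusted p under 0.05 (1529 of all genes) and 0 called by DESeq2. The young Drp1-mut and young Marf-mut sums hold the deep replicate 3 of each group, and no fit of the sums left it out alone.

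The smallest p belonged to mRpL46 at -0.35 ± 0.09 (adjusted p = 0.0822) and to mRpS11, a small subunit protein with a bacterial counterpart, at -0.28 ± 0.08 (adjusted p = 0.0871). mRpL46 stood at 78.9, 65.8 and 66.4 CPM in old Opa1-mut and at 81.8, 73.9 and 83.0 in young Opa1-mut. It was called as lower without the old or the young Opa1-mut suspension (1 member). Leaving out each suspension left 62 to 69 members negative with medians of -0.17 to -0.13. Once 1 sum of a genotype is left out, its other sum tells nothing about age in this fit. Leaving out the old or the young sum of a genotype is thus nearly the same check. Scaling by total counts made all 72 negative at a median of -0.22, with the median of all genes at -0.09. With mutants set against Cas9 on suspension sums, 0 members passed edgeR's test in Drp1-mut (0.138% of all genes called, 1 member at an unadjusted p under 0.05), in Marf-mut (0.103%, 0 members) and in Opa1-mut (0.609%, 8 members), and DESeq2 called 0 in each.

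**Figure D5:**
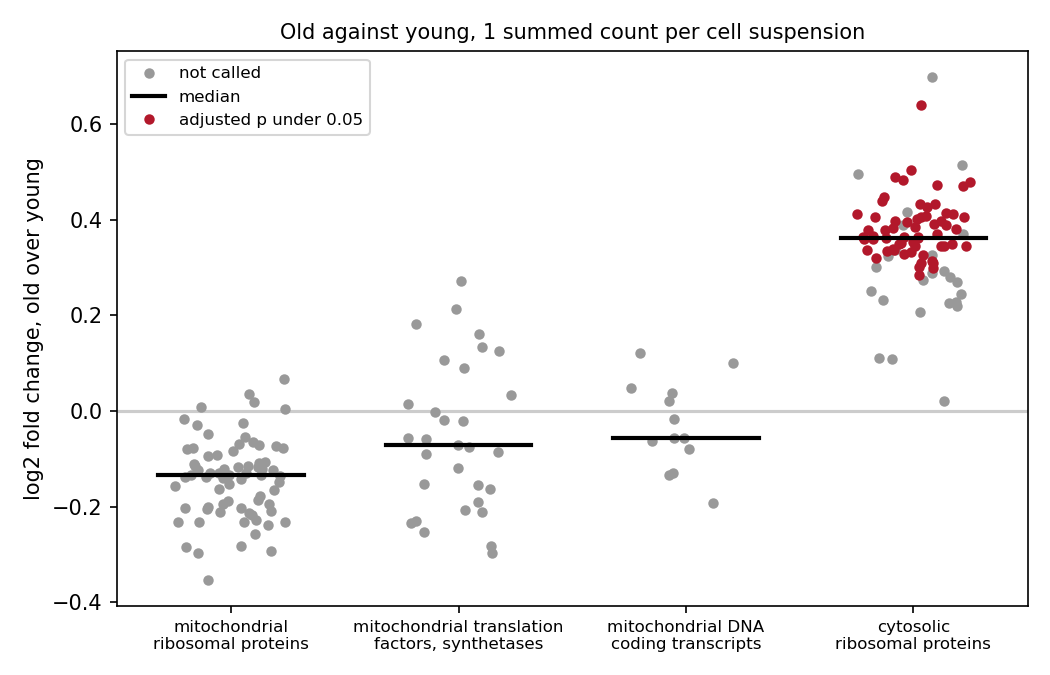
Log2 fold change of old against young neurons on counts summed per suspension for the members, the cytosolic ribosomal proteins, the mitochondrial DNA coding genes and the mitochondrial translation factors, with each point a gene. Members lie between -0.35 and 0.07, and cytosolic ribosomal protein genes between 0.02 and 0.70.

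The ribosomal protein genes of the cytosol went the other way with age. On suspension sums 61 of 86 tested rose and all 86 were positive, at a median log2 fold change of 0.36, against 3.72% of all genes called. That count changed with single suspensions, with 0 called without the old or the young Marf-mut suspension, 4 without old Cas9, 3 without young Cas9, 6 without old Drp1-mut, 5 without young Drp1-mut and 71 without old or young Opa1-mut, while the median stayed between 0.34 and 0.40. Between old and young Cas9 10 of 84 rose, 83 were positive and the median was 0.36, with 3 called without replicate 3 of old Cas9, 1 without replicate 2 and 4 without replicate 1 of it, and 66 called without replicate 2 of young Cas9, 5 without replicate 1 and 1 without replicate 3 of it. On suspension sums 73 were called with the length trend taken out and 35 with scaling by total counts. Between mutants and Cas9 they differed less, with 0 called in old Drp1-mut (median 0.03, and -0.04 under scaling by total counts), 3 lower in old Marf-mut (0.09), 8 higher in old Opa1-mut (0.10), 0 in young Drp1-mut (0.07), 0 in young Marf-mut (0.09) and 4 higher in young Opa1-mut (0.22). The count in old Opa1-mut was 13 without its replicate 3, 0 without its replicate 2, 1 without its replicate 1 and 3, 1 and 2 without replicates 1, 2 and 3 of old Cas9. In young Opa1-mut, leaving out its own replicates 1, 2 and 3 gave 1, 2 and 2, and leaving out replicates 2 and 3 of young Cas9 gave 44 and 1. In old Marf-mut it was 5 without replicate 3 of old Cas9. Over all genes 2.13% were called as higher between old and young Cas9, 2.27% as higher in young Opa1-mut and 2.91% as lower in old Marf-mut. The 8 in old Opa1-mut are 9.41% of 85 tested, against 537 of 7119 genes called as higher.

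The 13 protein-coding transcripts of the mitochondrial genome, the messages that these ribosomes translate, had larger medians than the members in the old mutants. In old Drp1-mut 12 of 13 rose at a median of 0.64, whereas 11 fell in old Marf-mut at a median of -0.57 and 13 fell in old Opa1-mut at a median of -1.20. Over all genes 18 of 6847 were called as higher in old Drp1-mut, 2.91% as lower in old Marf-mut and 5.65% as lower in old Opa1-mut. The member medians in the same comparisons were -0.11, -0.03 and -0.10. In old Drp1-mut against the old fusion mutants all 13 rose, at a median of 1.47 against -0.07 for the members. Of all genes 4.83% were called as higher there. In young neurons 0 of 13 were called in Drp1-mut and Opa1-mut, at medians of 0.48 and -0.22, and the median in Marf-mut was -0.07. The Opa1-mut effect differed between the ages for 11 of 13, all lower in old neurons, at a median of -0.93, against 3.27% of all genes called as lower. With age on suspension sums 8 of 13 were negative at a median of -0.06.

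Mitochondrial translation factors, aminoacyl-tRNA synthetases and proteins of mitochondrial gene expression were followed as a list of 33 genes, of which 31 were in the table. In old Marf-mut 1 of 31 tested rose and none fell, at a median of 0.15, against 119 of 7090 genes called as higher. It was mEFTu1, an elongation factor that brings aminoacyl-tRNA to the ribosome, at 185 ± 15.0 CPM in old Marf-mut and 140 ± 11.9 CPM in old Cas9 (0.40 ± 0.11, adjusted p = 0.0375). In old Opa1-mut 1 of 30 fell and none rose, at a median of 0.09, against 5.65% of all genes called as lower. It was mRRF2, a ribosome recycling factor, at 4.62 ± 1.31 CPM in old Opa1-mut and 11.6 ± 3.66 CPM in old Cas9 (-1.34 ± 0.42, adjusted p = 0.0383). These are low levels, below the lowest mean of any member, 47.0 CPM. The adjusted p-values of mEFTu1 and mRRF2 are near the threshold, and their range over the alternatives is not given here. mEFTu1 was also lower in old Drp1-mut than in the old fusion mutants, at -0.37 ± 0.10 (adjusted p = 0.0269). None was called in old Drp1-mut, in the young mutants or in old against young Cas9, at medians between -0.11 and 0.09. On suspension sums 21 of 31 were lower in old neurons, at a median of -0.07.

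The members were also grouped by their place in the ribosome. Of the 4 stalk proteins (mRpL1, mRpL10, mRpL11 and mRpL12), the 5 proteins of the peptidyl transferase region and core, the 6 at the polypeptide exit and membrane side, the 5 of the central protuberance and the 6 of the small subunit head and body, none was called in a mutant against Cas9. Over all genes the share called in these comparisons ran between 0.0831% and 13.2%. In the Opa1-mut difference between ages mRpL10 of the 4 stalk proteins and mRpL23 of the 6 at the exit side were called, against 5.63% of all genes. The median log2 fold changes of the stalk were -0.07, 0.03 and -0.09 in old Drp1-mut, Marf-mut and Opa1-mut, and those of the core -0.05, 0.00 and -0.03. Proteins of the exit side had medians of -0.17, -0.13 and -0.07, and those of the small subunit head and body -0.17, 0.02 and -0.05. The central protuberance alone had positive medians in all 3 old mutants, at 0.07, 0.20 and 0.11, and it had the most negative median of the 5 groups in old against young Cas9, at -0.24. These comparisons share the old Cas9 libraries.

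Members numbered like bacterial proteins and members with mitochondrial numbering lay close together. The split goes by the number in the symbol alone, and not by whether a protein has a bacterial counterpart. In old Opa1-mut 3 of 42 with bacterial numbering and 1 of 30 with mitochondrial numbering fell, which is 7.14% and 3.33% against 5.65% of all genes called as lower, with medians of -0.10 in both. With age on suspension sums the medians were -0.13 over the 42 and -0.14 over the 30. Among the 30 members without an overlapping gene, 1 fell in old Marf-mut, 1 fell in old Opa1-mut, 1 rose in young Opa1-mut, 1 rose in old against young Cas9 and 2 differed in the Opa1-mut effect between ages. A single member is 3.33% of the 30, against 2.91%, 5.65%, 2.27% and 2.13% of all genes called in these directions, and 2 are 6.67%, against 3.27% of all genes. Counts of 1 and 2 are too small to set apart from these shares.

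Proteins of the small subunit that carry older symbols were not members by the rule and are given for comparison. tko encodes the S12 protein, whose mutants are known for seizures after mechanical shock. It averaged 124.8 ± 22.8 CPM in old Drp1-mut, 145.6 ± 5.6 in old Marf-mut, 138.3 ± 2.1 in old Opa1-mut and 136.9 ± 22.5 in old Cas9. It averaged 162.4 ± 27.8 CPM in young Drp1-mut, 151.3 ± 40.2 in young Marf-mut, 154.4 ± 17.7 in young Opa1-mut and 155.5 ± 16.9 in young Cas9. The mutant groups of each age overlapped their controls, and the gene was called in no comparison.

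bonsai encodes the S15 protein. It averaged 39.6 ± 2.7 CPM in old Drp1-mut, 44.5 ± 4.4 in old Marf-mut, 43.4 ± 7.3 in old Opa1-mut and 47.0 ± 20.2 in old Cas9. It averaged 57.7 ± 6.1 CPM in young Drp1-mut, 52.1 ± 3.5 in young Marf-mut, 50.8 ± 4.2 in young Opa1-mut and 48.1 ± 8.1 in young Cas9. Old Cas9 libraries were widely spread at 67.6, 46.3 and 27.2 CPM, and bonsai was called in no comparison.

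The authors' deposited tables, made with DESeq2 for the 6 comparisons of a mutant with Cas9, list few members as changed. At an adjusted p under 0.05 the authors' deposited table for old Opa1-mut holds 4 members, all lower, against 6.11% of its genes. That share is over all 10424 genes listed, whether or not they hold an adjusted p, and so has another base than the shares above. They are mRpS21 at a log2 fold change of -0.89, mRpS33 at -0.92, mRpL33 at -0.97 and mRpL34 at -0.92 in the authors' deposited table. The authors' deposited table for old Marf-mut holds 1, mRpS21 at -0.70, against 1.91% of its genes, counted in the same way. No member passes in the authors' deposited tables for the other 4 comparisons.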

How the data were processed

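Smart-seq3 libraries of sorted neurons were read from the deposited table of counts, whole UMIs per gene, unnormalized per the labels. Alignment used STAR and the dm6 genome and comparisons used DESeq2, per the submitters' processing notes; for versions, UMI counter, strand setting and annotation, nothing is given in the sources used here. In the authors' deposited comparison tables, fold changes are log2 values and each p-value is the authors' own, per the file headers. The mean, standard error and statistic columns deposited there count as a score and were not used.

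Members and lists were chosen with earlier results of these data known. Counts were analysed in R 4.3.3 with edgeR 4.0.16 and its quasi-likelihood F test (TMM, filterByExpr, robust dispersions, Benjamini-Hochberg adjustment over all genes tested), and a call is an adjusted p under 0.05. Standard errors are |log2 fold change| over √F. Levels are TMM-scaled CPM over 24 libraries of 684175 to 2889269 UMIs, and errors are SDs of 3 libraries. The interaction and fusion comparisons used the libraries of the groups named. Counts summed per suspension were fitted on genotype plus age, which leaves 3 residual degrees of freedom. Transcript lengths, positions and neighbours come from the Ensembl annotation of the same genome build.

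Named are all called members, up to 3 members a direction with the largest difference among those with separate libraries and a mean of at least 20 UMIs in the higher group, the 5 highest and 5 lowest members, and fixed lists. mRpL23, mRpS11 and the members named only under an alternative or in the order per kb were named after their values were seen, except where called. Alternatives were total count scaling, DESeq2 size factors, DESeq2 1.42.0 for testing, no filter, thinning to 1 depth, log2 depth as a covariate, all 24 libraries in a single fit, a replicate block, leaving out each library or suspension and, chosen after seeing the data, a transcript length trend as an offset. Replicate numbers were checked for pairing, with correlations of same-numbered libraries of -0.14 to 0.12, and do not pair libraries. The tests were tested on simulated counts.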

Additional observations from a re-analysis of the deposited data

Results flagged for a closer look

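For 9 members the effect of Opa1-mut differed between old and young neurons, or had opposite directions at the 2 ages in every library. By the interaction test of edgeR the difference, old minus young on the log2 scale, was -1.91 for mRpL33 (adjusted p = 0.0143), -1.73 for mRpL34 (0.0355), -1.51 for mRpS21 (0.00108), -1.23 for mRpS33 (0.00241), -0.87 for mRpL42 (0.00607), -0.81 for mRpL36 (0.018), -0.73 for mRpL23 (0.0191) and -0.63 for mRpL10 (0.0385).

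mRpS14, a small subunit protein with a bacterial counterpart, stood at 102.9, 103.8 and 91.3 CPM in old Opa1-mut and at 114.7, 138.0 and 109.7 CPM in old Cas9, and at 154.3, 143.2 and 135.5 CPM in young Opa1-mut and 130.1, 130.7 and 115.9 CPM in young Cas9. All mutant libraries were lower than the controls in old and higher in young neurons, but the difference of -0.50 did not pass the interaction test (adjusted p = 0.0841).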

How the results depend on the processing

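Of 22 calls, 7 held in every fit that left out 1 library, and 0 held under every other alternative; where a count changed, the cause was not tested. Leaving out each library in turn gave 0 to 1 called members in young Drp1-mut, 0 to 4 in young Marf-mut, 1 to 7 in young Opa1-mut, 0 to 0 in old Drp1-mut, 0 to 3 in old Marf-mut, 2 to 7 in old Opa1-mut, 0 to 5 in old against young Cas9, 0 to 6 in the Marf-mut difference between ages, 5 to 11 in the Opa1-mut difference and 0 to 3 in old Drp1-mut against the old fusion mutants. Leaving out each suspension gave 0 to 1 with age on suspension sums and 0 for each mutant.

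Without the filter the counts were 2 in young Marf-mut, 7 in young Opa1-mut, 5 in old against young Cas9 (4 higher, 1 lower), 4 in the Marf-mut difference, 2 in old Drp1-mut against the fusion mutants and 1 with age on suspension sums. With total count scaling they were 6 in young Opa1-mut, 1 in the Marf-mut difference and 4, all lower, in old Drp1-mut against the fusion mutants. DESeq2 called 4 in the Marf-mut difference and 2 in old Drp1-mut against the fusion mutants. Thinning gave 7 in old Opa1-mut, 2 in the Marf-mut difference, 2 in old Drp1-mut against the fusion mutants and 1 with age on suspension sums. With the length offset they were 1 in young Marf-mut, 0 in old Marf-mut, 0 in old against young Cas9, 1 in the Marf-mut difference, 4 in the Opa1-mut difference and 0 in old Drp1-mut against the fusion mutants. With log2 depth as a covariate, 0 were called in young Opa1-mut, old Opa1-mut, old against young Cas9, the Opa1-mut difference and old Drp1-mut against the fusion mutants, and mRpL34 in old Opa1-mut turned to 0.048 (adjusted p = 0.970), against -0.93 as reported. In each of these comparisons depth did not overlap between the groups set against each other, so depth and group can hardly be told apart. With all 24 libraries in a single fit they were 3 in young Opa1-mut (all lower, in place of 2 higher and 1 lower), 0 in old Marf-mut, 1 in old Opa1-mut, 1 in old against young Cas9 (mRpL46, lower, in place of 3 higher), 2 in the Opa1-mut difference and 0 in old Drp1-mut against the fusion mutants.

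The replicate block gave 2 called members in young Opa1-mut, 3 in old Marf-mut, 4 in old Opa1-mut, 5 in old against young Cas9 (4 higher, 1 lower), 7 in the Opa1-mut difference and 1 in old Drp1-mut against the fusion mutants. The numbers are not known to pair libraries. DESeq2 size factors moved no count by over 1.5 times. With 3 sorted pools of 1 suspension a group, small differences between suspensions cannot be told apart from those of genotype or age.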
